A study of Mus musculus with 20 samples.

Results

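Lmo1 and Cntn2 wells of the mouse habenula at embryonic day 15 (E15) were chosen by transcript counts. A well was a member if its counts of Lmo1 and Cntn2 summed to at least 5 while its count of Cbln2 was under 3. This rule found 102 of the 490 kept wells of the E15 plates (20.8%). Plate 1 gave 74 members of 188 kept wells and plate 2 gave 28 of 302, from 4811 kept wells in the whole series. Kept wells had 500 or more genes, 1000 or more counts without spike-ins and mitochondrial transcripts, and a mitochondrial share of up to 20%.

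The study profiled single habenula cells in 384-well plates with Cel-seq2, which counts 3′ ends of transcripts by unique molecular identifiers (UMIs). The E15 plates, and the plates from E11, E12, E13, E18, P4, P7 and adults, came from the Brn3a-tauLacZ mouse line, named for a reporter at the locus of Brn3a, the older name of Pou4f1. Further E18 plates of left, right or both habenulae came from C57BL/6 mice. The sources used here do not state the genotype of the Brn3a-tauLacZ mice, a sort gate, the sex or how many mice a plate holds. P-values therefore measure at most how the difference between classes varies from plate to plate, which may be technical. Where the plates fitted are of several stages or sides, that variation also holds stage or side. Left and right plates may share mice, which the sources used here do not state.

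The habenula is an epithalamic relay whose medial division sends cholinergic and peptidergic axons to the interpeduncular nucleus and whose lateral division projects to midbrain monoaminergic centres. Its neurons arise from progenitors of the dorsal diencephalon, pass through a phase in which basic helix-loop-helix (bHLH) factors and SoxC factors are transiently on, and extend axons through the fasciculus retroflexus. Lmo1 encodes a LIM-only transcriptional regulator, Cntn2 encodes contactin-2 (TAG-1), a surface glycoprotein of growing axons, and Cbln2 encodes a secreted synapse organizer.

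Among the genes called higher in wells passing the rule both at E15 and in the 2 sets of plates outside E15 were 3 bHLH factors, Neurod4, Nhlh1 and Neurod2. Their proteins bind E-boxes. The promoter windows of these 3 genes are therefore shown 5′ to 3′ on the gene's own strand, with each E-box (CANNTG, a motif that reads the same on both strands) in capitals. They come from RefSeq on GRCm38.p6, span 240 bases that end 10 bases before the RefSeq start, and lie at chr10:130280265-130280504, chr1:172057607-172057846 and chr11:98329656-98329895, all on the minus strand and outside annotated exons.
Neurod4 promoter: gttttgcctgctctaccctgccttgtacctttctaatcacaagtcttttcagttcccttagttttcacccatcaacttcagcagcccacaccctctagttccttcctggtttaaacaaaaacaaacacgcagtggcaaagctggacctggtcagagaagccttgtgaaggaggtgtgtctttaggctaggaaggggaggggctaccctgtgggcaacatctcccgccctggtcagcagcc
Nhlh1 promoter: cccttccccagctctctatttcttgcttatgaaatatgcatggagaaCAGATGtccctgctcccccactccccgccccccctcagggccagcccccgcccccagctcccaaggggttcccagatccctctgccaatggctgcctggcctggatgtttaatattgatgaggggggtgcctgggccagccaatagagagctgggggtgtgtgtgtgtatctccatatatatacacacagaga
Neurod2 promoter: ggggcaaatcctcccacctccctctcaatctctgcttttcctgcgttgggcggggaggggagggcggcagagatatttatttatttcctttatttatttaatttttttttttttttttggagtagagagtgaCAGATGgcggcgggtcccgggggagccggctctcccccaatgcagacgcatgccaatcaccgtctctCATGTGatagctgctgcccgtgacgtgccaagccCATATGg
RefSeq lists 2 windows for Neurod4, of which the one nearest to the GENCODE start is shown, and each holds 0 E-boxes. The window of Nhlh1 holds 1 and that of Neurod2 holds 3. Over 32851 promoter windows of the same length, 65.0% hold at least 1 E-box and 11.3% at least 3, so the Neurod2 count lies in the upper part of that range. The counts are a description of letters only.

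The members carried the genes of neurons. Over the 10 genes of a neuron list (Tubb3, Map2, Snap25 and others), the summed level on plate 1 was 10431 CPM (counts scaled to a total of 1000000) in members and 10094 CPM in the other kept wells. Plate 2 had 10493 and 11119.7 CPM. At least 20 neuron-list counts were found in 71 of 74 and 28 of 28 members. Pou4f1, the habenula homeodomain factor at the reporter locus, had a UMI in 65 of 74 and 26 of 28 members. Slc17a6, the vesicular glutamate transporter of habenula neurons, had one in 66 of 74 and 26 of 28. The proliferation gene Mki67 was at 0 in members of both plates.

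Markers of other cell types were scarce in members and less so in the wells they are compared with. No member held 10 or more counts over the vascular, microglia, choroid plexus and erythroid lists, against 5 and 2 of the other wells. Summed vascular and mesenchymal markers (12 genes, 4 and 10 of them at 0 in members) stood at 28.1 CPM in members against 243 CPM on plate 1 and at 14.4 against 14.6 CPM on plate 2. Choroid plexus and ependyma markers (8 genes, 5 and 6 at 0 in members) were at 22.5 against 119 CPM and 7.18 against 7.77 CPM. Microglia markers (8 genes, 6 and 3 at 0) were at 5.63 against 6.19 CPM and 18.0 against 125 CPM. Median counts per well were 8493 in members and 9545 in other wells on plate 1, and 8335 and 8131 on plate 2. The other wells were of unequal depth, with medians of 11601 and 9577 in Cbln2 wells and 3372 and 3438 in wells with neither. The rule uses counts that are not scaled to depth, and the part of depth in it was not tested. The part of these markers in the results that follow was not tested unless a value without those wells is given.

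Within the sum of Lmo1 and Cntn2, Cntn2 carried most of the choice. All 102 members had a UMI of Cntn2 (GRCm38 chr1:132509427-132543256, minus strand), with a median of 11 (3 to 50) on plate 1 and 8.5 (2 to 35) on plate 2, and 91 reached 5 on Cntn2 alone. Lmo1 (chr7:109138572-109175207, minus strand) had a UMI in 71 of the 102, with medians of 1.5 (0 to 20) and 3 (0 to 24), and reached 5 alone in 25. Cbln2 was at 0, 1 and 2 UMIs in 47, 32 and 23 members.

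Low Cbln2 was as much a part of the choice as high Lmo1 and Cntn2. At E15, 289 kept wells had Lmo1 and Cntn2 summing to at least 5, and 187 of these (64.7%) were left out because Cbln2 reached 3. The other kept wells therefore held Lmo1 and Cntn2 too: the Lmo1 level was 283 CPM in members against 396 CPM in the others on plate 1 and 511 against 218 CPM on plate 2. Cntn2 stood at 1292 against 1010.5 CPM and 1220.0 against 524 CPM. So the label of Lmo1 and Cntn2 neurons names the rule, and on plate 1 the members did not hold the higher Lmo1 level. The other wells comprised 77 and 228 wells with Cbln2 of at least 3, called Cbln2 wells below, and 37 and 46 wells with neither.

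**Figure D1:**
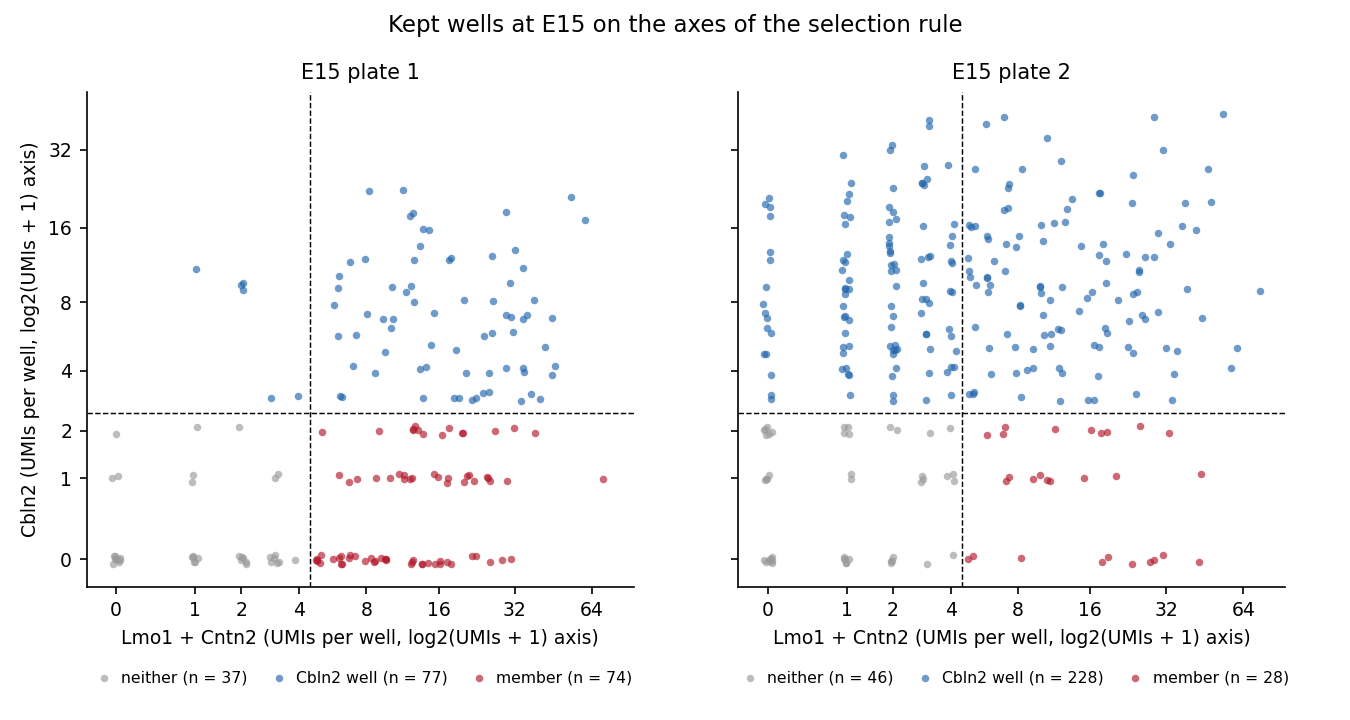
Each point is a kept well of E15 plate 1 (left) or plate 2 (right), placed by its summed Lmo1 and Cntn2 UMIs (horizontal, log2(UMIs + 1) axis, jittered) and its Cbln2 UMIs (vertical, same kind of axis). Red members (74 and 28) lie right of and below the dashed thresholds, blue Cbln2 wells (77 and 228) lie above, and grey wells with neither (37 and 46) lie at lower left.

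Wells on either side of a threshold had values of both kinds. The 8 members at a sum of exactly 5 had Igfbpl1 at 958 CPM and Neurod4 at 19.1 CPM, and the 6 wells left out at a sum of 4 had 398 and 0 CPM. These sets differ in plate, with 6 and 2 members from plates 1 and 2 against 1 and 5 of the wells left out, so plate and class cannot be told apart there. The 23 members with 2 Cbln2 UMIs had Igfbpl1 at 618 CPM and Neurod4 at 43.5 CPM, and the 21 wells left out with 3 had 787 and 10.6 CPM. On the Cbln2 side Igfbpl1 was thus higher just outside the rule than just inside it, and Neurod4 lower.

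The share of kept wells that passed differed between the E15 plates, at 39.4% on plate 1 (95% exact binomial interval 32.3 to 46.7) and 9.27% on plate 2 (6.25 to 13.1), intervals that cover counting error only. Thinning every well to 4000 counts gave 46.8% of 158 and 18.6% of 263 wells, shallower wells being left out. On the other Brn3a-tauLacZ plates the rule passed 23.9% and 27.5% at E11, 14.1% on the E12 plate, 15.0% and 24.1% for E13, and 20.6% and 13.6% at E18. After birth it passed 10.5% and 10.2% of wells on the P4 plates, 4.60% and 2.38% on the P7 plates and 12.5% and 7.89% on the adult plates. The C57BL/6 E18 plates gave 14.5% and 13.0% for left, 22.2% and 9.02% for right and 9.61% for both sides. After thinning, the shares were 7.19% and 11.2% at E11, 12.5% and 16.0% for the E13 plates, 12.7% and 7.61% at E18, and 0% and 0.386% on the P7 plates. Thinning takes UMIs from Cbln2 as well as from Lmo1 and Cntn2, so wells can enter as well as leave the class. The 2 E15 plates differed more from each other than E11 plates did from P7 plates before thinning, so no stage order is read from these shares.

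**Figure D2:**
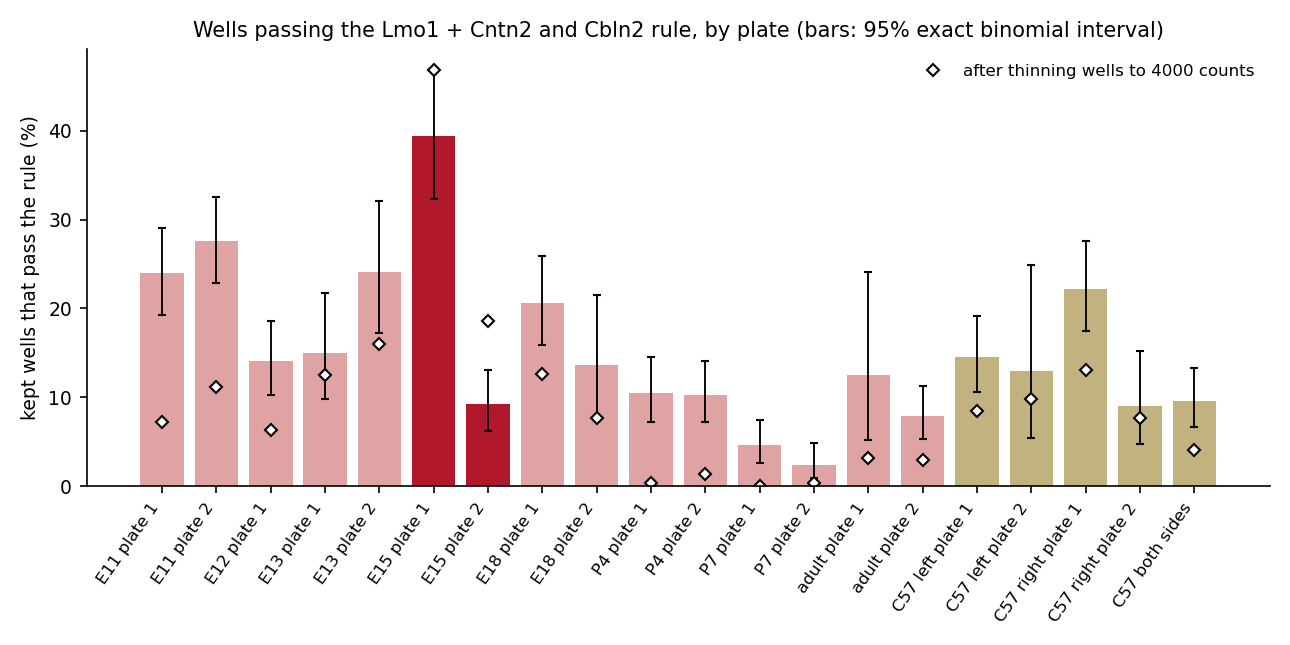
Bars give the percentage of kept wells on each plate that pass the rule, with 95% exact binomial intervals, in dark red for E15, pink for the other Brn3a-tauLacZ plates and tan for C57BL/6 E18. Diamonds give the percentage after thinning wells to 4000 counts; E15 plate 1 (39.4%, thinned 46.8%) stands highest and E15 plate 2 (9.27%, thinned 18.6%) lies among the others before thinning.

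Counts were summed over the members of a plate and over its other kept wells, and the sums were compared with edgeR. Of 9837 genes tested at E15, 142 were called higher in members (1.44% of genes tested) and 171 lower (1.74%) at an adjusted p of at most 0.05. Against Cbln2 wells alone, 53 of 9549 genes were higher (0.555%) and 55 lower (0.576%). These counts include genes of the rule, whose direction the selection favoured. Without them 141 and 170 genes were called against other wells, and 53 and 54 against Cbln2 wells. The wells were selected on genes of this same contrast and its fit rests on 4 sums with 1 residual degree of freedom, so E15 differences are given as a description. In the fit against other wells the prior degrees of freedom were infinite. A gene's SE and p-value there thus did not use its own spread between plates. Without the plate as a replicate block, 0 genes were called in either E15 fit (376 and 478 at an unadjusted p under 0.05), and DESeq2 called 32 and 39. From the spliced counts alone, 7 and 110 genes were called.

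The same rule was then applied to plates it had not been chosen on. Wells there were still sorted by Lmo1, Cntn2 and Cbln2, so these fits also favour genes that vary with them. The adjusted p-values do not correct for that. On the 7 Brn3a-tauLacZ plates of E11, E12, E13 and E18, 187 of 10893 genes rose in passing wells (1.72%) and 245 fell (2.25%). Of wells with Lmo1 and Cntn2 summing to at least 5, the Cbln2 cut removed 4 of 78 and 1 of 96 at E11. It removed 14 of 55 at E12, 37 of 60 and 23 of 56 at E13, and 8 of 63 and 32 of 47 at E18. On the E11 plates and E18 plate 1 the rule thus chose mainly by Lmo1 and Cntn2, unlike at E15 (187 of 289 removed). On the 4 C57BL/6 E18 plates with at least 10 passing wells (left plate 1, right plates 1 and 2, and both sides), 255 of 12827 rose (1.99%) and 387 fell (3.02%). Without the rule's genes, 185 rose and 244 fell on the Brn3a-tauLacZ plates, and 253 and 386 on the C57BL/6 plates. Left plate 2 had 7 passing wells and stayed out. The adjusted p-values below come from these 2 fits, named the other series plates and the C57BL/6 plates, and differences are log2 ± SE. The 432 calls on the other series plates became 251 without E12 and 283 without E13 plate 1. The 642 on the C57BL/6 plates became 280 without left plate 1 and 406 without the plate of both sides. Without the block by plate, 5 and 144 genes were called.

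The other wells on these plates included cells outside the neuron lineage. Summed radial glia markers had plate medians of 1930.5 CPM in passing wells against 2445 CPM in the others on the other series plates, and cycling genes 119 against 408 CPM. Vascular and mesenchymal markers ranged from 6.34 to 675 CPM against 8.92 to 2212 CPM. On the C57BL/6 plates, erythroid genes ranged from 15.8 to 1230.0 CPM against 27.2 to 22119 CPM, and oligodendrocyte lineage genes from 42.5 to 121 against 335 to 459 CPM. Of 14 cycling genes tested on the other series plates, 6 were lower in passing wells, and of 12 radial glia genes, 4. For the C57BL/6 plates these counts were 0 of 13 and 6 of 12. Pax6 was the 1 radial glia gene that was higher, though not without left plate 1 or right plate 2 (adjusted p of 0.0576 to 0.0922). Without wells holding 10 or more counts of other cell types, 347 genes were called on the other series plates and 235 on the 3 C57BL/6 plates that still had 10 passing wells. Left plate 1 stood apart, with 34 of 41 passing and 223 of 242 other wells at 10 or more such counts, led by the haemoglobin gene Hbb-bs, and it dropped out of that fit. On E13 plate 2 these wells were 19 of 33 and 69 of 104, led by the choroid plexus gene Ttr. The part of these counts in the calls was not tested beyond the fits without those wells or plates.

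The genes proposed as markers of the class, other than those in the rule, had higher levels in members than in other wells on both E15 plates. Igfbpl1, a secreted IGF-binding-protein-like gene of newborn neurons (GRCm38 chr4:45809468-45826923, minus strand), stood at 885 against 533 CPM on plate 1 and 499.6 against 282 CPM on plate 2, and in Cbln2 wells at 538 and 283 CPM. An Igfbpl1 UMI was found in 68 of 74 and 25 of 28 members, 99 of 114 and 209 of 274 other wells, and 73 of 77 and 184 of 228 Cbln2 wells, so its detection alone did not mark the class. Across the other series plates its lowest, median and highest levels in passing wells and in the others were 309, 579 and 911 CPM against 84.3, 215 and 381 CPM, higher on 7 of 7 plates (1.56 ± 0.12, adjusted p = 5.22e-05). On the C57BL/6 plates (left 1, right 1, right 2, both) it was at 289, 178, 309 and 199 CPM against 82.0, 73.3, 155 and 82.2 CPM, with no overlap of the groups (1.36 ± 0.13, adjusted p = 9.27e-05). Igfbpl1 thus rose in passing wells on every plate fitted in both sets.

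Rnd3, Shisa2 and Sema3c passed the test on the C57BL/6 plates and missed it on the other series plates, and the difference between these sets was not tested. Rnd3, which acts on the cytoskeleton of migrating neurons, was at 496 against 429 CPM on plate 1 and 493 against 256 CPM on plate 2 at E15. Levels rose on the C57BL/6 plates (187, 174, 142 and 221 CPM against 70.1, 65.8, 73.5 and 85.2 CPM; 1.32 ± 0.12, adjusted p = 6.4e-05). Its difference on the other series plates was 0.63 ± 0.20, adjusted p = 0.114, higher on 5 of 7. Shisa2, an endoplasmic reticulum protein that holds back Wnt and FGF receptors, was at 166 against 118 CPM on plate 1 and 115 against 53.5 CPM on plate 2. Its level rose on the C57BL/6 plates (56.3, 45.0, 53.2 and 80.4 CPM against 15.2, 13.2, 17.9 and 13.9 CPM; 1.98 ± 0.21, adjusted p = 0.000204). The other series plates gave 1.30 ± 0.35, adjusted p = 0.055, higher on 6 of 7. Sema3c, a secreted semaphorin, was close on plate 1 and apart on plate 2 (122 against 118 CPM on plate 1 and 101 against 36.3 CPM on plate 2). It rose on the C57BL/6 plates (1.41 ± 0.21, adjusted p = 0.00147) unless left plate 2 was added (adjusted p = 0.146). On the other series plates it was higher on 3 and lower on 4 (0.37 ± 0.44, adjusted p = 0.743). Against Cbln2 wells alone at E15, Igfbpl1 was the 1 of these 4 markers that was called. There Rnd3 differed by 0.51 ± 0.18, Shisa2 by 0.67 ± 0.24 and Sema3c by 0.63 ± 0.30 on the log2 scale. On plate 1 each of the 4 had a UMI in a larger share of Cbln2 wells than of members, for example Shisa2 in 67.5% against 58.1%. On plate 2 each had one in a larger share of members, for example Shisa2 in 46.4% of members against 40.8% of Cbln2 wells.

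Neurod4, a proneural bHLH factor that acts at the exit from the cell cycle (chr10:130268152-130280240), set the members apart at E15. It stood at 67.6 against 9.72 CPM on plate 1 and 64.7 against 2.27 CPM on plate 2 (log2 difference 3.68). A Neurod4 UMI was found in 22 of 74 and 8 of 28 members, against 8 of 114 and 7 of 274 other wells, and in Cbln2 wells its level was 6.24 and 2.08 CPM. The wells with neither had 29.5 and 4.93 CPM. Across the other series plates its levels were 18.1, 55.7 and 156 CPM against 0, 6.33 and 65.8 CPM (lowest, median, highest), higher on 7 of 7 (2.63 ± 0.44, adjusted p = 0.00462). On the C57BL/6 plates they were 36.8, 37.1, 28.4 and 50.5 CPM against 4.36, 3.52, 13.2 and 8.41 CPM (2.62 ± 0.34, adjusted p = 0.000614).

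Nhlh1, a bHLH factor of neurons just after their last division (chr1:172052292-172057573), was at 138 against 73.4 CPM on plate 1 and 82.6 against 10.4 CPM on plate 2 at E15. On plate 1 the wells with neither Lmo1 and Cntn2 nor Cbln2 had as much of it, 148 CPM. Levels rose on the other series plates, with levels of 18.1, 105 and 291 CPM against 0.861, 23.8 and 123 CPM (1.97 ± 0.26, adjusted p = 0.0011). Its level rose on the C57BL/6 plates too (52.9, 20.5, 24.8 and 31.5 CPM against 5.74, 10.6, 9.10 and 6.05 CPM; 2.06 ± 0.37, adjusted p = 0.00539). That call was lost without left plate 1 (adjusted p = 0.0771) or without wells of other cell types (0.0938), a fit that left plate 1 also drops out of. The direction was the same on all 4 plates.

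Neurod2, a bHLH factor that stays on in differentiating glutamatergic neurons (chr11:98325415-98329648), was at 180.2 against 86.6 CPM on plate 1 and 205 against 59.0 CPM on plate 2. Members thus held about the same level on both plates, and other wells less. It rose on the C57BL/6 plates (168, 196, 199 and 125 CPM against 63.4, 75.4, 74.5 and 26.2 CPM; 1.59 ± 0.15, adjusted p = 9.91e-05). It also rose on the other series plates (1.41 ± 0.25, adjusted p = 0.0061), where levels in passing wells ran from 0.736 to 193 CPM. On E11 plate 1 the levels of 0.736 and 0.262 CPM are those of about 1 UMI in each class, and on E12 they were 4.85 and 4.61 CPM, so no rise was measured on these plates. Its relative Neurod1 was at 256 against 257 CPM on plate 1 and 439 against 332 CPM on plate 2 at E15, so members and other wells lay close on plate 1 and members were higher on plate 2. Neurod1 rose on the other series plates (1.47 ± 0.17, adjusted p = 0.00036).

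**Figure D3:**
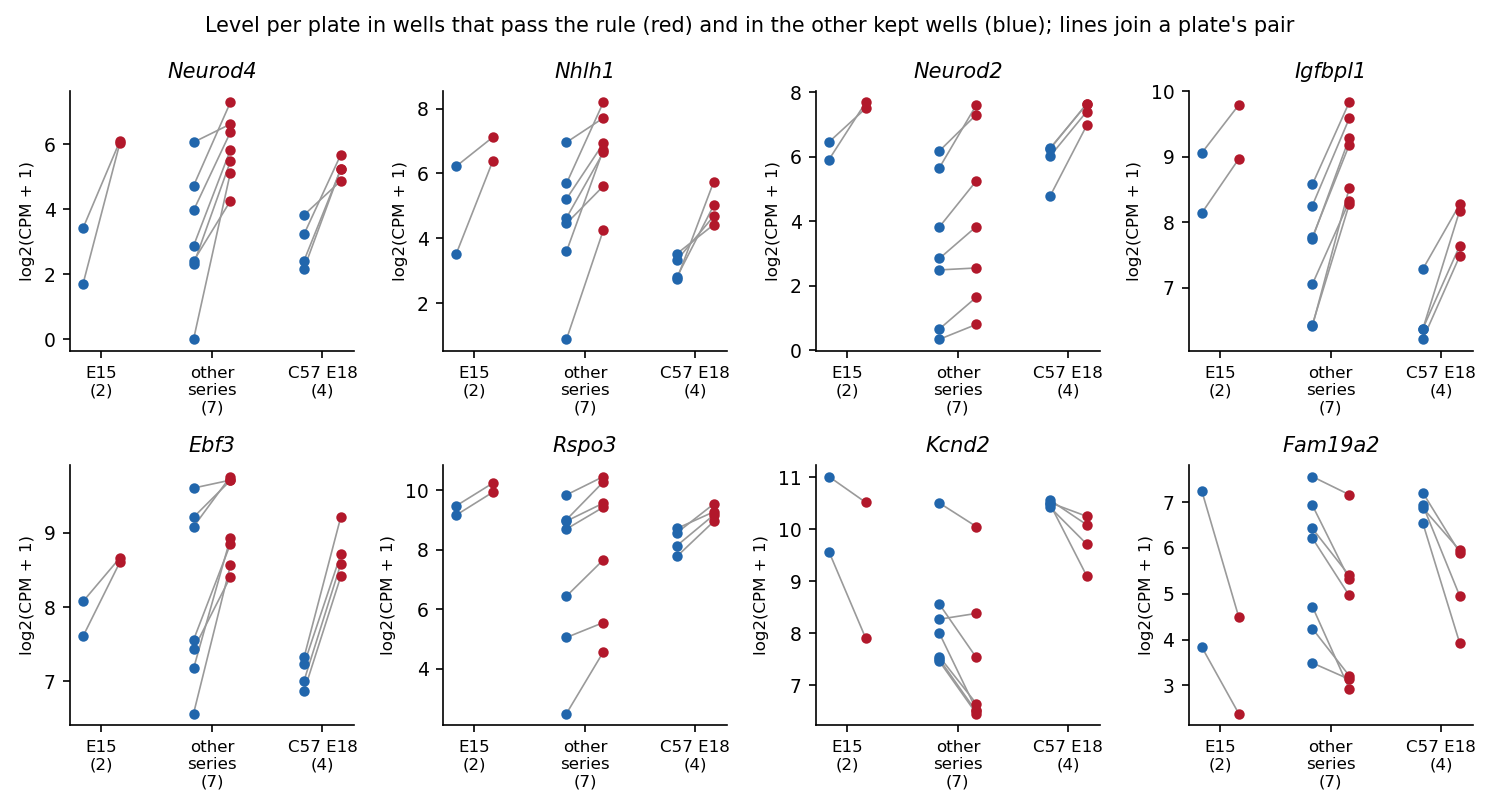
Each pair of joined points is 1 plate, with the level in the other kept wells in blue and in wells that pass the rule in red, as log2(CPM + 1), for 8 genes on 2 E15, 7 other series and 4 C57BL/6 E18 plates. Neurod4, Nhlh1, Igfbpl1, Ebf3 and Rspo3 lie higher in passing wells on every plate shown, Neurod2 lies clearly higher except on E11 plate 1 and E12, where its levels are low, Fam19a2 lies lower on every plate, and Kcnd2 lies lower on all but 1 of the other series plates.

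The lists of early neuronal genes leaned the same way. For these and the lists below, the shares called over all genes tested are the background. They were 1.44% higher and 1.74% lower at E15, 1.72% and 2.25% on the other series plates, and 1.99% and 3.02% on the C57BL/6 plates. Of the 14 immature neuron genes tested at E15, 4 were higher in members (Igfbpl1, Neurod2, Nhlh1, Sox4) and 0 lower, with a median log2 difference of 0.30 against -0.01 over all genes. Across the other series plates 7 of 12 rose (Igfbpl1, Neurod1, Neurod2, Nhlh1, Sox11, Sox4, Stmn1), with a median of 0.73. On the C57BL/6 plates 7 of 13 rose, Neurod6 taking the place of Stmn1, with a median of 0.36 against 0.00. None fell in either set. The call of Stmn1 was lost without either E13 plate or E18 plate 2 (adjusted p of 0.0522 to 0.0829), and that of Neurod1 on the C57BL/6 plates without left plate 1 (0.0542). Sox4 lost its call there without left plate 1, right plate 2 or the plate of both sides (0.0801 to 0.149). Sox11, a SoxC factor of newborn neurons, was at 3524 against 2913 CPM on plate 1 and 2423 against 2064 CPM on plate 2 at E15. It rose in both other sets (0.76 ± 0.13, adjusted p = 0.00516; 0.64 ± 0.09, adjusted p = 0.00084).

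Among 12 intermediate progenitor genes tested at E15, 4 were called higher (Btg2, Eomes, Mfng, Neurod4) and the median was 1.04. Eomes was read in 5 and 2 members. Wells with 3 or more counts over Neurog1, Neurog2 and Eomes were 6 of 74 members, 8 of 114 other wells and 6 of the 37 with neither on plate 1, and 2 of 28, 1 of 274 and 1 of 46 on plate 2. On plate 1 they were thus about as common in members as in other wells, and their share was largest in wells with neither. On the other series plates 5 of 12 rose (Btg2, Dll3, Insm1, Neurod4, Rgs16; median 1.14), and on the C57BL/6 plates 2 of 11 (Gadd45g, Neurod4; median 0.65), with 0 lower in each. Rgs16 did not pass without E11 plate 2, E12 or either E13 plate (adjusted p of 0.0858 to 0.116). Insm1, a zinc finger factor of differentiating precursors, was at 118 against 104 CPM on plate 1 and 104 against 61.6 CPM on plate 2 at E15. The proneural factor Neurog2 was at 53.5 against 47.8 CPM on plate 1 and 7.18 against 2.27 CPM on plate 2, and the plate 1 wells with neither had 189 CPM. Neurog1 was at 0 in members of both plates, and the 16 cycling genes (3 and 9 of them at 0 in members) summed to 73.2 against 185 CPM and 46.7 against 69.7 CPM. Of 7 radial glia genes tested at E15, 2 were higher, Nes and the homeodomain factor Pax6 (148 against 87.6 CPM on plate 1 and 256 against 26.9 CPM on plate 2). The synaptic maturity list (Snap25, Syp, Syn1 and others) had 1 gene lower of 13 at E15, Nrgn. Slc17a6 was its 1 gene that rose elsewhere (0.95 ± 0.18, adjusted p = 0.00867 on the other series plates, 0.78 ± 0.10, adjusted p = 0.000603 on the C57BL/6 plates).

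**Figure D4:**
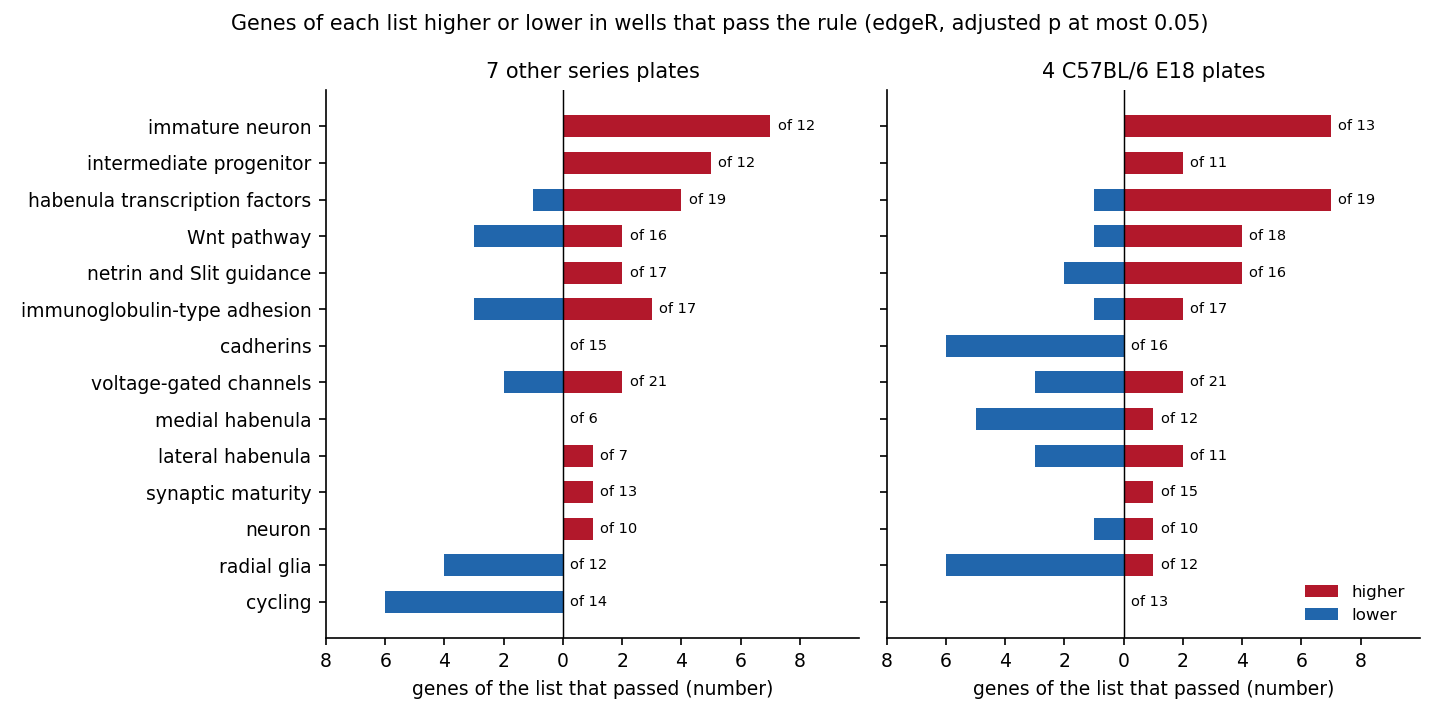
Bars count the genes of each list that were higher (red, to the right) or lower (blue, to the left) in wells passing the rule at an edgeR adjusted p of at most 0.05, of the number tested, on 7 other series plates (left) and 4 C57BL/6 E18 plates (right). The immature neuron list has 7 higher and 0 lower in both panels, the cadherins 0 and 6 lower, and the medial habenula list 0 and 5 lower. Over all genes tested, 1.72% were higher and 2.25% lower on the left, and 1.99% and 3.02% on the right.

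Other early genes were among the 35 called higher at E15 and in both other sets, a group picked after the values were seen. St18, a zinc finger factor of the Myt1 family that acts as neurons form, was at 170.4 against 38.9 CPM on plate 1 and 111 against 21.1 CPM on plate 2. Levels rose on the other series plates, with levels of 24.1, 109.9 and 245 CPM against 8.61, 26.2 and 54.2 CPM (1.95 ± 0.23, adjusted p = 0.000561). Its level on the C57BL/6 plates was higher on 3 and lower on right plate 2 (7.09 against 15.1 CPM), and the call (1.54 ± 0.31, adjusted p = 0.011) was lost without left plate 1 (0.146), right plate 1 (0.0773) or the plate of both sides (0.0558). Srrm4, the splicing factor that switches on neuronal microexons, was at 344 against 195 CPM on plate 1 and 370.2 against 167 CPM on plate 2. Its level rose on the other series plates (1.14 ± 0.11, adjusted p = 0.000149) and kept its call there without the block. With the rule's genes left out, 51 genes were called higher both at E15 and on the other series plates, 36.2% of the E15 list and 27.6% of the other. The lower lists shared 41 genes (24.1% and 16.8%). With the C57BL/6 plates the E15 lists shared 65 higher genes (46.1% and 25.7%) and 66 lower ones (38.8% and 17.1%), and 26 genes were called lower in all 3 fits. Of 9670 genes tested both at E15 and on the other series plates, the latter fit called 177 higher and 162 lower. For the C57BL/6 plates these were 229 and 241 of 9730. All these fits sort wells by the same genes, so the lists are not independent.

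Several transcription factors of the habenula lineage were also higher in members. Of 19 tested at E15, 7 were called higher (Ebf1, Ebf3, Nfia, Nfib, Nfix, Nr2f2, Tcf7l2) and 1 lower (Etv1), and the median was 0.23. The other series plates had 4 higher and 1 lower of 19 (median 0.21), and the C57BL/6 plates 7 and 1 of 19 (median 0.41). Ebf3, a helix-loop-helix factor of migrating and differentiating neurons, was at 404 against 269 CPM on plate 1 and 388 against 194 CPM on plate 2. It rose on the C57BL/6 plates (383, 419, 594 and 341 CPM against 128, 149, 159 and 116 CPM; 1.63 ± 0.10, adjusted p = 2.93e-06). Levels rose on the other series plates as well (1.04 ± 0.21, adjusted p = 0.0129), where the call was lost without E13 plate 1 (adjusted p = 0.053). Tcf7l2, the Wnt effector that specifies thalamic and habenular identity, was at 5095 against 3889 CPM on plate 1 and 3909 against 2334 CPM on plate 2. Its level rose on the C57BL/6 plates (0.69 ± 0.08, adjusted p = 0.00024). Its call on the other series plates (0.55 ± 0.14, adjusted p = 0.0489) was lost without either E11 plate, either E13 plate, E12 or E18 plate 2 (adjusted p of 0.0531 to 0.134) or without wells of other cell types (0.43).

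The nuclear factor I genes, which act in the late phase of neuron and glia differentiation, were higher in members at E15 and at E18 in C57BL/6 mice. Nfia was at 602 against 296 CPM on plate 1 and 511 against 93.3 CPM on plate 2 at E15, with 210.1 and 80.5 CPM in Cbln2 wells but 785 and 276 CPM in wells with neither. Nfib was at 1419 against 995 CPM on plate 1 and 1163 against 366 CPM on plate 2. On the C57BL/6 plates Nfia was at 824, 685, 1011 and 1126 CPM against 269, 307, 438 and 598 CPM (1.23 ± 0.11, adjusted p = 5.27e-05). Nfib rose there by 1.35 ± 0.09, adjusted p = 4.72e-06, and Nfix by 1.20 ± 0.12, adjusted p = 0.000108. Across the other series plates all 3 were higher on 3 plates and lower on 4 (Nfia -0.23 ± 0.26, adjusted p = 0.727). Levels in passing wells there ran from 4.93 to 1809 CPM for Nfia, 6.62 to 3702 CPM for Nfib and 0 to 1164 CPM for Nfix. Some of these plates thus lie near the floor, where a direction means little. Pou4f1 did not pass the test in either set (0.07 ± 0.30, adjusted p = 0.95; -0.39 ± 0.12, adjusted p = 0.0822). At E15 it was at 528 against 594 CPM on plate 1 and 889 against 764 CPM on plate 2.

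Among axon guidance genes, Dcc stood high and was read almost wholly from unspliced transcripts. Dcc, the netrin receptor that steers commissural and habenular axons, was at 15000.3 against 6858 CPM on plate 1 and 14543 against 4708 CPM on plate 2 at E15, and 99.5% of its counts in members were unspliced. It was at 5238, 7189 and 14151 CPM against 2380.3, 3028 and 5203 CPM on the other series plates, higher on 7 of 7 (1.23 ± 0.12, adjusted p = 0.000146). The C57BL/6 plates had 5826, 4193, 6415 and 7244 CPM against 1713, 2009, 2601 and 2495 CPM (1.42 ± 0.10, adjusted p = 8.2e-06). Robo3, the receptor that tunes the response of commissural axons to Slit, was lower in members at E15 (531 against 993 CPM on plate 1 and 748 against 1101 CPM on plate 2). It passed in neither set (0.73 ± 0.43, adjusted p = 0.431; -0.04 ± 0.21, adjusted p = 0.961). Of 15 netrin and Slit genes tested at E15, 2 were higher (Dcc, Unc5c) and 3 lower (Robo3, Slit2, Srgap1). On the other series plates 2 of 17 rose and 0 fell, and on the C57BL/6 plates 4 of 16 rose and 2 fell. Over all genes tested, 1.72% rose and 2.25% fell in the former set, and 1.99% and 3.02% in the latter.

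Reln, the secreted glycoprotein that positions migrating neurons, was at 101 against 51.3 CPM on plate 1 and 429 against 177 CPM on plate 2. A Reln UMI was found in 17 of 74 members against 25 of 114 other wells on plate 1, and in 11 of 28 against 152 of 274 on plate 2. On plate 2 a smaller share of members than of other wells thus held it, with up to 35 UMIs in a member. Reln rose in both sets (1.17 ± 0.19, adjusted p = 0.00346; 0.87 ± 0.14, adjusted p = 0.00228). Flrt3, an adhesion and guidance receptor, was at 514 against 335 CPM on plate 1 and 327 against 123 CPM on plate 2. It rose in both as well (1.06 ± 0.15, adjusted p = 0.00174; 1.65 ± 0.19, adjusted p = 0.000262). The immunoglobulin-type adhesion list leaned to lower values at E15, with 7 of 16 lower, 2 higher and a median of -0.50. Elsewhere it was mixed, with 3 higher and 3 lower of 17 on the other series plates and 2 and 1 of 17 on the C57BL/6 plates. Dscaml1 was higher in all 3 fits (454 against 309 CPM on plate 1 and 504 against 273 CPM on plate 2 at E15). Lsamp, another member of that superfamily outside the list, was lower at E15 (1192 against 2843 CPM on plate 1 and 2059 against 3964 CPM on plate 2). Lsamp fell on the other series plates (-0.95 ± 0.23, adjusted p = 0.0349) unless E12, either E13 plate or E18 plate 2 was left out (adjusted p of 0.0513 to 0.0865). Cadherins were lower in 2 of 15 at E15, in 0 of 15 on the other series plates and in 6 of 16 on the C57BL/6 plates, with none higher. Over all genes tested in these 3 fits, 1.44%, 1.72% and 1.99% were called higher and 1.74%, 2.25% and 3.02% lower.

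In the Wnt pathway, Rspo3, a secreted R-spondin that raises Wnt receptor levels, was at 1205 against 707 CPM on plate 1 and 975 against 570.0 CPM on plate 2 at E15. It was at 22.6, 687 and 1404 CPM against 4.60, 413 and 916 CPM on the other series plates, higher on 7 of 7 (0.97 ± 0.17, adjusted p = 0.00554). The C57BL/6 plates had 493, 573, 741 and 617 CPM against 218, 280.3, 378 and 418 CPM (0.94 ± 0.10, adjusted p = 0.000239). Wif1, a secreted Wnt inhibitor, went the other way at E15. It was at 1.41 CPM, near the floor, against 9.72 CPM on plate 1 and at 25.1 against 79.7 CPM on plate 2. It fell on the C57BL/6 plates (27.6, 7.88, 0 and 1.58 CPM against 111, 110.1, 84.5 and 109 CPM; -3.28 ± 0.36, adjusted p = 0.000227) and on the other series plates (-2.22 ± 0.37, adjusted p = 0.00468). Over the Wnt list 3 of 12 genes were higher at E15 (Fzd2, Rspo3, Tcf7l2), 2 of 16 rose and 3 fell on the other series plates, and 4 of 18 rose and 1 fell on the C57BL/6 plates. The shares over all genes tested were 1.44% higher at E15, 1.72% up and 2.25% down on the other series plates, and 1.99% and 3.02% on the C57BL/6 plates.

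Markers of the medial and lateral habenula did not move as 1 block. Of 7 medial habenula genes tested at E15, 2 were lower in members (Nwd2, Tac1) and 1 higher (Calb2, which encodes calretinin). Nwd2, enriched in medial habenula, was at 147 against 622 CPM on plate 1 and 1141 against 2928 CPM on plate 2 at E15. It fell on the C57BL/6 plates (2062, 2465, 1205 and 1893 CPM against 3773, 3957, 3624 and 2614 CPM; -0.88 ± 0.14, adjusted p = 0.00225). The call was lost once left plate 2 was added (adjusted p = 0.0723). Tac1, which encodes substance P of medial habenula neurons, was at 182 against 367 CPM on plate 1 and 151 against 307 CPM on plate 2. It fell on the C57BL/6 plates (14.9, 13.4, 14.2 and 6.31 CPM against 66.8, 89.9, 129 and 66.3 CPM; -2.72 ± 0.21, adjusted p = 2.17e-05), with no overlap of the groups. Across the other series plates Nwd2 and Tac1 did not pass (-0.93 ± 0.42, adjusted p = 0.278; -0.78 ± 0.23, adjusted p = 0.0829). Of 12 medial habenula genes tested on the C57BL/6 plates, 5 fell (Calb2, Gng8, Nwd2, Tac1 and Tac2) and 1 rose, the choline transporter Slc5a7, with a median of -0.31. Calb2 was called higher at E15 and lower on the C57BL/6 plates, and was not called on the other series plates (0.44 ± 0.55, adjusted p = 0.761). Its E15 level was 149.5 against 27.4 CPM on plate 1 and 3.59 against 27.9 CPM on plate 2, higher in members on the first plate and lower on the second, where 1 of 28 members held a UMI. Without plate 1 its E15 difference turned to -2.91 log2 units. It fell on 4 of 4 C57BL/6 plates (-1.55 ± 0.24, adjusted p = 0.00241). Slc5a7 and Tac2 did not pass without left plate 1 or right plate 1, nor Slc5a7 without the plate of both sides (adjusted p of 0.0707 to 0.167 and 0.102 to 0.144). Of 6 lateral habenula genes tested at E15, 2 were higher in members (Cacna2d1, Chrm3) and 0 lower, and of 7 on the other series plates 1 rose (Cacna2d1) and 0 fell. Of 11 tested on the C57BL/6 plates, 3 fell (Gpr151, Pcdh10, Sst) and 2 rose (Cacna2d1, Chrm3), with a median of -0.36. Sst did not pass without left plate 1 or right plate 1 (0.102 to 0.108), nor Chrm3 without left plate 1, right plate 2 or the plate of both sides (0.0725 to 0.123).

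Channel genes moved in both directions. Cacna2d1, an auxiliary subunit of voltage-gated calcium channels, was at 807 against 275 CPM on plate 1 and 1249 against 65.5 CPM on plate 2 at E15 (log2 difference 2.85). The SE of that fit did not use the spread between plates, and the difference was much wider on plate 2. A UMI was found in 56 of 74 and 15 of 28 members, against 72 of 114 and 80 of 274 other wells. On plate 2, 2 wells held 102 and 78 of the 345 UMIs in members. Cacna2d1 was at 254, 1296 and 1603 CPM against 49.1, 607 and 912 CPM on the other series plates (1.17 ± 0.23, adjusted p = 0.0105). It rose on the C57BL/6 plates too (1.64 ± 0.15, adjusted p = 7.4e-05). Kcnd2, the A-type potassium channel Kv4.2, was at 238 against 758 CPM on plate 1 and 1459.6 against 2060.1 CPM on plate 2, with 95.4% of its counts in members unspliced. It fell on the other series plates (-0.79 ± 0.16, adjusted p = 0.0162; 0.0572 without E12). It fell on the C57BL/6 plates too (-0.67 ± 0.14, adjusted p = 0.0124; 0.0582 without left plate 1 and 0.113 without wells of other cell types, which also takes out left plate 1). Il1rapl1, a synapse-organizing receptor, was at 64.8 against 252 CPM on plate 1 and 334 against 525 CPM on plate 2. It fell in both sets (-0.95 ± 0.18, adjusted p = 0.00841; -0.95 ± 0.14, adjusted p = 0.00113).

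Fam19a2, a secreted chemokine-like gene of neurons, was at 4.22 against 13.3 CPM on plate 1 and 21.6 against 150.2 CPM on plate 2 at E15. The plate 1 level in members lies near the floor, with 3 UMIs in 2 of 74 wells. Fam19a2 was at 6.61, 30.2 and 142 CPM against 10.2, 73.3 and 187 CPM on the other series plates, lower on 7 of 7 (-1.03 ± 0.19, adjusted p = 0.00841). The C57BL/6 plates had 58.6, 60.8, 14.2 and 30.0 CPM against 147, 116, 92.1 and 121 CPM (-1.43 ± 0.19, adjusted p = 0.000886). Cntnap2, a neurexin-family protein that clusters potassium channels, was at 87.3 against 225 CPM on plate 1 and 144 against 1536 CPM on plate 2 at E15. It fell on the C57BL/6 plates (-1.10 ± 0.11, adjusted p = 0.000149). On the other series plates it differed by -0.71 ± 0.24, adjusted p = 0.139. Of 21 channel genes tested, 2 rose and 2 fell on the other series plates, and 2 rose and 3 fell on the C57BL/6 plates. Over all genes tested, 1.72% rose and 2.25% fell in the former set, and 1.99% and 3.02% in the latter.

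Relatives of the rule's genes were tested apart from those genes. Of the LIM-only and LIM homeobox list, 0 of 9 were called at E15, 2 of 11 rose on the other series plates, and 3 of 11 rose and 1 fell on the C57BL/6 plates. Lmo3, a LIM-only relative of Lmo1, was at 300.0 against 385 CPM on plate 1 and 727 against 418 CPM on plate 2 at E15. Levels rose on the C57BL/6 plates (1.17 ± 0.13, adjusted p = 0.000238), and on the other series plates it differed by 0.32 ± 0.20, adjusted p = 0.452. Of 10 cerebellins and their synaptic partners, 3 were lower at E15, 0 were called on the other series plates, and 1 rose and 4 fell on the C57BL/6 plates.

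Several of the widest E15 differences rested on few wells or on wells of another kind. By rule the 12 widest rises among 139 eligible genes were Trhde, Dmrta2, Neurod4, Eomes, Zfp804b, Galnt15, Cacna2d1, Fgf10, Rasgrp1, Dmrta1, Edaradd and Ebf2. Trhde on plate 2 was read in 2 members, with 29 and 19 UMIs. For Eomes, 1 well held 64.3% of the members' counts on plate 1 and 57.1% on plate 2. On plate 2, 1 well also held 86.7% of the Zfp804b, 85.7% of the Fgf10, 60.0% of the Dmrta1 and 55.9% of the Rasgrp1 counts. Cacna2d1 had 102 and 78 of its 345 UMIs there in 2 wells. Dmrta1, a doublesex-related factor, was at 117 against 30.0 CPM on plate 1 and 71.9 against 5.51 CPM on plate 2. Its UMIs lay in 33 of 74 members on plate 1, at most 7 in a well, and in 5 of 28 on plate 2, where 12 of 20 came from 1 well. Its level rose on the other series plates (1.60 ± 0.36, adjusted p = 0.0263), though not without E12 (adjusted p = 0.07), E13 plate 1 (0.0883), E18 plate 1 (0.0606) or wells of other cell types (0.0635). Ebf2 was at 90.1 against 18.6 CPM on plate 1 and 57.5 against 10.7 CPM on plate 2. The other series plates showed a rise too (1.65 ± 0.23, adjusted p = 0.0015). Its C57BL/6 difference was -0.42 ± 0.59, adjusted p = 0.817.

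The 12 widest falls, among 165 eligible, were Zfp36l1, Rgs5, A730017C20Rik, Kcnq5, Cntn5, Sparc, Gabra2, Ntng1, Apoe, Fam19a2, Cntnap2 and Pcnx2. Zfp36l1, Rgs5, Sparc and Apoe, genes of progenitors, pericytes, vessels and glia, were compared in the wells with neither, where the plates differed. Rgs5 was at 972 CPM on plate 1 and 0 CPM on plate 2. Sparc was at 461 and 158 CPM, Apoe at 35.4 and 1787 CPM and Zfp36l1 at 183 and 287 CPM. Of the 391 Apoe UMIs in other wells on plate 2, 1 well held 235 and another 115. In Cbln2 wells Rgs5 was at 6.24 and 0.347 CPM, close to the 12.7 and 0 CPM of members. Gabra2, a GABA-A receptor subunit, was by contrast lower in members than in Cbln2 wells (8.44 against 63.5 CPM and 18.0 against 122 CPM). Kcnq5, a potassium channel, was likewise lower (5.63 against 28.1 CPM and 7.18 against 135 CPM). On the C57BL/6 plates both fell in passing wells (Gabra2 -0.68 ± 0.16, adjusted p = 0.0275; Kcnq5 -0.68 ± 0.14, adjusted p = 0.0107). Without left plate 1 neither passed (adjusted p = 0.0685 and 0.0831), nor did Gabra2 without the plate of both sides (0.173) or Kcnq5 without right plate 1 (0.0729).

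Set against the 77 and 228 Cbln2 wells alone, members differed in the same direction as against all other wells for the genes that follow. Neurod4 differed by 4.18 ± 0.49, Cacna2d1 by 3.19 ± 0.42, Nhlh1 by 1.82 ± 0.37, Dcc by 1.33 ± 0.11 and Igfbpl1 by 0.77 ± 0.14 on the log2 scale. Dmrta2, a doublesex-related factor of the dorsal forebrain, was at 45.1 against 2.08 CPM on plate 1 and 61.1 against 2.08 CPM on plate 2. Its UMIs were found in only 9 of 74 and 6 of 28 members, and in 2 of 77 and 5 of 228 Cbln2 wells. Eomes, which marks intermediate progenitors, was at 19.7 against 0 CPM on plate 1 and 25.1 against 0.693 CPM on plate 2. Nwd2 (-1.77 ± 0.17), Tac1 (-1.10 ± 0.17) and Igsf5 (-2.23 ± 0.35) were lower. Of the genes called in all 3 fits against other wells, 17 of the 35 higher ones passed the test here as well, and 11 of the 26 lower ones, all in the same direction. Over all genes tested here, 0.555% were called higher and 0.576% lower. The members are the same in both contrasts, and Cbln2 wells are 77 of the 114 and 228 of the 274 other wells. A shared direction was thus largely built in and adds no separate support.

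The members were not uniform. The 22 and 8 members with a Neurod4 UMI were set beside the 52 and 20 without, a split chosen after the values were seen. Wells with Neurod4 held more Dcc, at 21901 against 11756 CPM on plate 1 and 24636 against 8005 CPM on plate 2. Cacna2d1 was at 1218 against 614 CPM on plate 1 and 2774 against 261 CPM on plate 2, where 2 wells held 102 and 78 of the 345 UMIs in members. Nfia was at 936 against 445 CPM on plate 1 and 962 against 219 CPM on plate 2. Each of these was higher with Neurod4, and so were St18, Insm1 and Reln, which come from no single list. St18 was at 335 against 93.1 CPM on plate 1 and 229 against 35.5 CPM on plate 2. Insm1 was at 185 against 86.9 CPM on plate 1 and 238 against 17.8 CPM on plate 2. Reln was at 259.9 against 26.9 CPM on plate 1 and 715 against 243 CPM on plate 2. Levels of all 6 were higher in the Neurod4 wells of both plates.

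Other genes had lower levels in wells with Neurod4. Sema3c was lower (52.8 against 155 CPM on plate 1 and 18.3 against 154 CPM on plate 2), as was Nwd2 (83.6 against 176 CPM on plate 1 and 146 against 1786 CPM on plate 2). Tubb3, neuronal tubulin, differed little, at 1898 against 2069 CPM on plate 1 and 2148 against 1910.0 CPM on plate 2. Neurod2 was lower with Neurod4 (123 against 207 CPM on plate 1 and 165 against 231 CPM on plate 2). Median counts per well were 8399.9 and 8493 on plate 1, but 13755 with and 6619.8 without Neurod4 on plate 2, so on that plate depth moves with the split and its part was not tested. Lmo1 was at 145 against 348 CPM on plate 1 and 284 against 658 CPM on plate 2 and Cntn2 at 1234 against 1319 CPM on plate 1 and 1255 against 1198 CPM on plate 2, but the unscaled sum of these genes chose the wells, so nothing is read from their levels here.

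**Figure D5:**
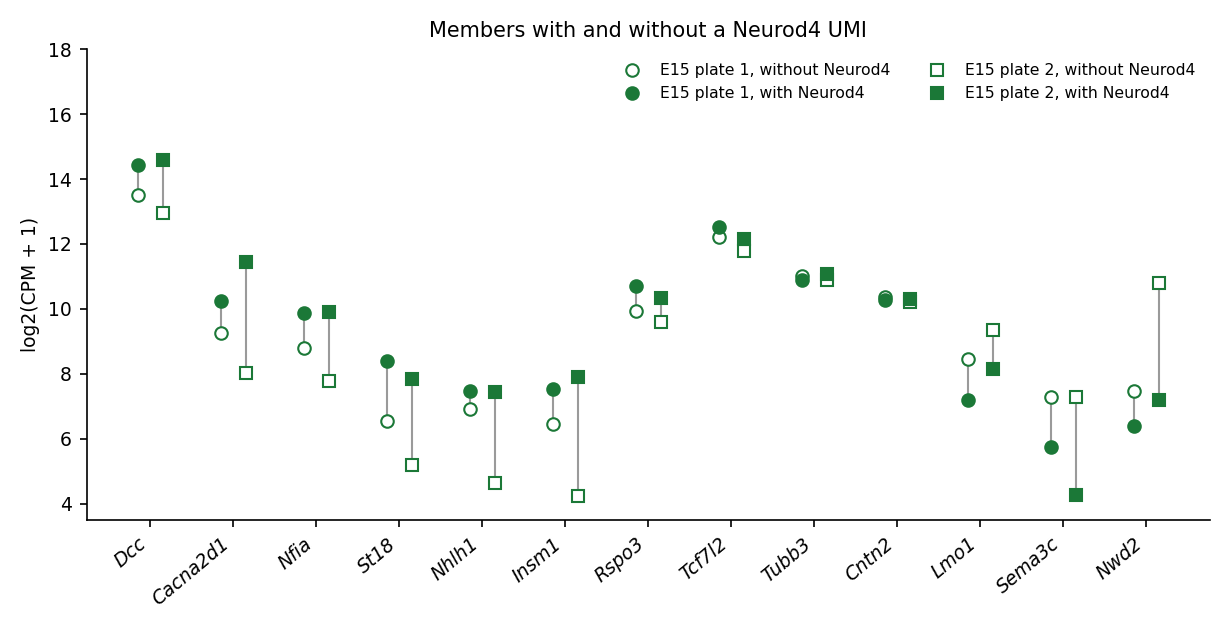
Points give the level, as log2(CPM + 1), of 13 genes in members with (filled) and without (open) a Neurod4 UMI on E15 plate 1 (circles, 22 and 52 wells) and plate 2 (squares, 8 and 20 wells). Dcc, Cacna2d1, Nfia, St18 and Insm1 lie higher with Neurod4 on both plates, Sema3c and Nwd2 lie lower, and Tubb3 differs little. Lmo1 and Cntn2 were used to choose the wells.

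A split by Lmo1 is a description only, since the rule used Lmo1 and members without it passed on Cntn2 alone. The 50 and 21 members with an Lmo1 UMI held more Sema3c than the 24 and 7 without (169 against 29.6 CPM on plate 1 and 109.8 against 59.3 CPM on plate 2). Tac1 was higher in them too (239 against 67.6 CPM on plate 1 and 167 against 79.1 CPM on plate 2). They held less Dcc (13269.9 against 18461 CPM on plate 1 and 11147 against 29842 CPM on plate 2). Cacna2d1 was lower (503 against 1414 CPM on plate 1 and 1071 against 2047 CPM on plate 2), and so was Nfia (403 against 999 CPM on plate 1 and 378 against 1109 CPM on plate 2). Median counts per well were 8249 and 8951 on plate 1 but 10699 and 6621 on plate 2. A Neurod4 UMI was found in 14 of the 50 and 6 of the 21 members with Lmo1, and in 8 of the 24 and 2 of the 7 without, so Lmo1 wells held it about as often as the others.

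Among the genes named, Cacna2d1, Chrm3, Cntn5, Cntnap2, Fam19a2, Igsf5, Il1rapl1, Kcnd2, Kcnq5, Lsamp, Map2, Neurod1, Nfib, Nwd2, Reln, Rspo3, Slc17a6, Slit2, Srgap1, Srrm4, Stmn1, Syn1, Tcf7l2, Tubb3, Unc5c and Zfp804b overlap another annotated gene on the same strand. On the opposite strand only, Dscaml1, Ebf1, Ebf2, Ebf3, Eomes, Fgf10, Flrt3, Galnt15, Lmo1, Lmo3, Mki67, Nfia, Nfix, Nr2f2, Ntng1, Pax6, Pcdh10, Pcnx2, Rgs16, Snap25, Sox4, Syp, Trhde and Zfp36l1 do. No source used here states whether counting used strand, so the counts of both sets are uncertain to that extent.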

How the data were processed

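Single wells of Cel-seq2 plates were read with 6-base UMIs, an 8-base cell barcode and poly-T primers, with ERCC spike-ins preloaded, per the labels' protocols. The submitters' processing notes name Trim Galore, STAR 2.5.3a and mm10; a counting program, annotation and strand setting are not stated there. The deposited values are expected counts, that is UMI counts that the authors corrected for UMI collisions, and all of them invert to whole UMIs within 1e-06. Of the deposited values 46.1% are whole numbers.

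From these, wells were filtered (at least 1000 counts outside 92 spike-in and 37 mitochondrial rows, 500 genes, at most 20% mitochondrial), and counts were summed per plate and class and rounded for edgeR 4.0.16 in R 4.3.3 (filterByExpr, TMM, quasi-likelihood test, Benjamini-Hochberg adjustment). Members held a median of 8493 and 8335 counts on E15 plates 1 and 2, so only sums were tested. The plate entered as a replicate block, since both classes come from the same plate. CPM was computed over all rows other than spike-ins. 37938 of 37994 gene identifiers were matched to GENCODE M21 on GRCm38 for coordinates. No doublet caller was run; both E15 plates use the same 384 well numbers by design, which are not shared cells. Named genes are the 12 with the largest difference in each direction against other wells and 8 against Cbln2 wells (adjusted p at most 0.05, the same direction on both plates, at least 20 CPM in the higher class), the proposed markers and members of gene lists. Members, lists and tests were chosen with earlier results of these data known. Alternatives were DESeq2 1.42.0, RLE factors, other cuts of the rule, no filter, deep wells only, spliced counts, recovered UMIs and leaving out plates; the script was tested on simulated data. Postnatal and adult plates entered no test, since the design took only embryonic ones.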

Additional observations from a re-analysis of the deposited data

Results flagged for a closer look

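The difference between wells passing the rule and the other kept wells was itself compared between E15 and the other series plates (edgeR, an interaction term fitted over 10597 genes for other wells and 8603 for Cbln2 wells). Trhde, a membrane peptidase, differed between the sets by 5.06 log2 units against other wells (SE 0.65, adjusted p = 0.0157) and by 5.01 against Cbln2 wells (SE 0.60, adjusted p = 0.00226). It was at 11.3 against 5.30 CPM on E15 plate 1 and 173 against 6.80 CPM on plate 2. It was lower in passing wells than in other wells on 7 of 7 other series plates, and higher on 3 of 4 C57BL/6 plates. The fit against Cbln2 wells had 8 plates, since E18 plate 1 has 9 Cbln2 wells, fewer than the 10 required. On its 6 plates outside E15, Trhde was lower in passing wells than in Cbln2 wells on 5 and higher on E13 plate 1 (16.5 against 11.6 CPM). On E15 plate 2 its 48 UMIs came from 2 wells, with 29 and 19, and on E15 plate 1 its 8 UMIs from 8 wells.

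Csmd1, a large transmembrane protein of neurons, differed by 2.47 log2 units against other wells (SE 0.36, adjusted p = 0.0353). It was at 399 against 183 CPM and 547 against 163 CPM on the E15 plates, and lower in passing wells on 7 of 7 other series plates, for example 449 against 1112 CPM on E18 plate 1. Its 283 UMIs on E15 plate 1 came from 38 of 74 wells, at most 67 from 1 well, and its 152 on plate 2 from 19 of 28, at most 35. The E15 wells of these contrasts were chosen by the rule, and a cause was not tested.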

How the results depend on the processing

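Counts of called genes depended on the processing, and the cause was not tested. Some settings also hold fewer wells, plates or genes. The prior degrees of freedom differed between settings too. Against other wells they were infinite in the main fit, 16.38 with RLE factors and 7.517 from spliced counts. Against Cbln2 wells they were 9.98 in the main fit and infinite with a cut of 4 or with no filter. Of 265 main calls against other wells that were tested in spliced counts, 263 kept their direction. At E15 against other wells the 313 calls became 32 with DESeq2, 161 with RLE factors, 172 with a cut of 8, 148 without wells of other cell types, 4 in a fit pooled with the other series plates and 7 from spliced counts. Against Cbln2 wells the 108 calls became 39 with DESeq2, 66 with RLE factors, 329 with a cut of 4, 288 with no filter on low counts, 65 without wells above 3 times the plate median, 15 in the pooled fit and 177 without the top well of each gene. With no filter, calls numbered 1532 on the other series plates and 1102 on the C57BL/6 plates, and without wells of other cell types, and so without left plate 1, 235 on the latter. Leaving out 1 E15 plate, in a fit where the remaining E15 plate is assumed to vary like the other plates, gave 0 to 1 calls against other wells (1 without plate 1, 0 without plate 2; 689 and 331 at an unadjusted p under 0.05) and 0 to 7 against Cbln2 wells (7 without plate 1, 0 without plate 2). Leaving out 1 plate gave 251 to 449 on the other series plates and 280 to 560 on the C57BL/6 plates. Without the replicate block by plate, the fits gave 0, 0, 5 and 144 calls in the order above; the C57BL/6 call of Nhlh1 was among those that held.

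No filter moved the median of all genes to -0.29, -0.21, -0.29 and -0.32 log2 units in the same order and the share of higher calls from 45.4%, 49.1%, 43.3% and 39.7% to 29.9%, 37.2%, 16.2% and 22.5%. That share was 63.6% for Cbln2 wells from spliced counts and 60.0% in the pooled fit, and 57.6% on the C57BL/6 plates without the block. The share of wells that are members was 30.3% on plate 1 with a cut of 8, and 46.8% and 18.6% after thinning. Among named genes called in the main fit or in the alternative, 1 reversed under the alternatives run. This was Calb2 at E15, which was at -2.91 log2 units without plate 1 and 2.49 without plate 2. Sign changes of genes called in neither fit were not counted. Depth limits single wells: at a median of 8335 to 8493 counts, a member without a UMI of a gene such as Neurod4 is not shown to lack it.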
